A study of Mus musculus with 4 samples.

Results

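The genes described here are 10 components of the NF-kB system in CD4 T cells of mouse lung: the subunit genes Nfkb1, Nfkb2, Rela and Relb, the IkB family genes Nfkbia, Nfkbiz, Nfkbid and Bcl3, the ubiquitin-editing enzyme gene Tnfaip3 and the ribonuclease gene Zc3h12a. They were chosen by symbol, and all 10 were found among the 31053 gene identifiers of both libraries. The cells came from C57BL/6 mice. Tumor lungs were taken 3 weeks after TC1 tumor cells, a transplantable mouse tumor line, had been injected into the tail vein, and normal lungs from age-matched normal mice without tumor cells. Lungs were perfused and digested with collagenase, and live CD4+ T cells were sorted. Each tissue gave 1 single-cell 5' gene expression library and 1 T cell receptor library. The sources used here do not give the mice's age or how many were pooled for a library. With 1 library per tissue, no difference between the tissues could be tested against the spread between animals.

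After filtering, 7135 tumor-lung cells and 7082 normal-lung cells remained, with medians of 4173 and 3906 unique molecular identifiers (UMIs, counts of distinct RNA molecules) per cell. The kept cells shared 74 cell barcodes between the libraries. Within each library the cells were split by whether a UMI of Foxp3, the transcription factor of regulatory T cells (Tregs), and a UMI of Ccr7, a lymph node homing receptor of resting T cells, had been detected. The Foxp3+ Ccr7+ gate held 401 tumor and 175 normal cells, and the Foxp3+ Ccr7- gate 746 tumor and only 31 normal cells. The Foxp3- Ccr7+ gate held 4849 and 6194 cells, and the Foxp3- Ccr7- gate 1139 and 682 cells. Treg markers other than Foxp3, which set the gates, were compared between them. The summed level of 7 such genes was 4516 and 6626 CPM (counts of a gene per 1000000 UMIs of the gate) in the Foxp3+ Ccr7+ and Foxp3+ Ccr7- cells of tumor lung, 1911 and 3740 CPM in those of normal lung, and between 264 and 1180 CPM in the 4 Foxp3- sums. The CD4 T cell markers had UMIs in every gate. The NK cell markers were at 0 in all Foxp3+ gates, and Ms4a1, C1qa, C1qb, S100a8 and S100a9 were at 0 in all 8 sums. Other markers of these lists had UMIs. Summed NK cell markers reached 12.6 CPM in the Foxp3- sums. Summed B cell markers lay between 9.02 and 40.4 CPM in the Foxp3+ sums and between 0.406 and 4.23 CPM in the Foxp3- sums. Summed epithelial markers lay between 2.58 and 49.5 CPM, highest in tumor-lung Foxp3+ Ccr7- cells. CD8 T cell markers lay between 0 and 28.8 CPM, and summed myeloid markers between 65.5 and 199 CPM. A gate set on a detected UMI favors deeper cells, and the Foxp3- gates also hold Tregs whose Foxp3 was missed.

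NF-kB dimers are held in the cytoplasm by IkB proteins until signals from the T cell receptor, CD28 or TNF receptor family members activate the IKK kinases, which mark the inhibitors for destruction. The freed dimers enter the nucleus and switch on, among many targets, the genes of their own inhibitors. In CD4 T cells the pathway supports activation and survival, and in mice it is needed for the formation and function of Tregs.

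On assembly GRCm38.p6 the members lie at chr3:135584655-135691969 (Nfkb1), chr19:46300994-46312400 (Nfkb2), chr19:5637442-5648134 (Rela), chr7:19606217-19629438 (Relb), chr12:55489409-55492647 (Nfkbia), chr16:55811375-55838954 (Nfkbiz), chr7:30421731-30428749 (Nfkbid), chr10:19000910-19015410 (Tnfaip3), chr4:125118414-125127881 (Zc3h12a) and chr7:19808462-19822824 (Bcl3). Nfkb1, Nfkb2 and Bcl3 overlap other annotated genes, and whether the counting used strand was not given in the sources used here, so their counts are less certain.

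RefSeq promoter windows, from 250 bases before to 50 bases after a transcript start, were matched for 7 of the 10 members. The windows were searched on both strands for the 10-base kappa B consensus, the canonical binding motif of NF-kB dimers. At least 1 match was found for 5 of these 7 genes, Nfkbia, Nfkb2, Tnfaip3, Nfkbid and Bcl3, and none for Rela and Zc3h12a. These genes can have several windows, and 7 of their 12 windows held a match, 3 of them windows of Nfkb2. Among all 32851 mouse windows of the same length, 8.46% held a match. A looser kappa B pattern, which keeps only the outer G and C bases and so includes the consensus, was found in 50.8% of all windows. A window of each of the 5 genes is printed with that of Rela for contrast, 5' to 3' on the strand of the gene, with the matches in capitals (assembly GRCm38.p6). Nfkbia lies on the minus strand at chr12:55492598-55492897 and its match spans positions -29 to -20. Nfkb2 lies on the plus strand at chr19:46304487-46304786, with overlapping matches from -39 to -29 and another from -11 to -2. Tnfaip3 lies on the minus strand at chr10:19015361-19015660, with matches from -125 to -116 and from -12 to -3. The second window of Nfkbid lies on the plus strand at chr7:30422156-30422455, with matches from -226 to -217 and from -181 to -172. Bcl3 lies on the minus strand at chr7:19822706-19823005 and its match spans positions 3 to 12 of the transcript. The Rela window lies on the plus strand at chr19:5637291-5637590. A match describes letters only and is not evidence that a factor binds there.
Nfkbia: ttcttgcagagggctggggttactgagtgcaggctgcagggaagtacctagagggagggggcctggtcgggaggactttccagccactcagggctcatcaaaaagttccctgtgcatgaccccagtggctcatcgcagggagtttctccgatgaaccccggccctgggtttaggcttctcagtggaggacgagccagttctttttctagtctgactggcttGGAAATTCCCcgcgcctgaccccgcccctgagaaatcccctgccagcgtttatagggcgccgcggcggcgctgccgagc
Nfkb2: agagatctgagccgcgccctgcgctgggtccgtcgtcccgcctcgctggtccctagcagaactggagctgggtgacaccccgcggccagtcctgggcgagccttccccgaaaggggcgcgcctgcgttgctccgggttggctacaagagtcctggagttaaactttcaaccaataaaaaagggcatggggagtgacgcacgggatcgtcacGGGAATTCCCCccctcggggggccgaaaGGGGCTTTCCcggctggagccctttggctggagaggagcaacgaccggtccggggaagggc
Tnfaip3: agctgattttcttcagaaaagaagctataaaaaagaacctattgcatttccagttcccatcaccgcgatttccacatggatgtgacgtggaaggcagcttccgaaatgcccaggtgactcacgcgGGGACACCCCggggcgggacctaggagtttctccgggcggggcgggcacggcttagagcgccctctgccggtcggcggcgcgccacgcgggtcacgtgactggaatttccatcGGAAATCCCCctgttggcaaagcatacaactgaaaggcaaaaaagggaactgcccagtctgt
Nfkbid: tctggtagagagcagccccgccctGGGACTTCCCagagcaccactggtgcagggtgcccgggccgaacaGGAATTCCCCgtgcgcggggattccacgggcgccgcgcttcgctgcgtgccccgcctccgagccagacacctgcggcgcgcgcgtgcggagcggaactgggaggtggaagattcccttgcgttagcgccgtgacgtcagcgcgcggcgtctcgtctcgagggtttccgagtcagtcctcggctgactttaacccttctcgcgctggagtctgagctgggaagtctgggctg
Bcl3: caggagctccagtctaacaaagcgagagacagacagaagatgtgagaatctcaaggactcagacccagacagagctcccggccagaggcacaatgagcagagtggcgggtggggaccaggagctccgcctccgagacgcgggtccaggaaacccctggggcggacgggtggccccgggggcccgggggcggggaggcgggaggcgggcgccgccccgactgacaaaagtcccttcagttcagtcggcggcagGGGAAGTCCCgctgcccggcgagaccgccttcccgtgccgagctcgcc
Rela: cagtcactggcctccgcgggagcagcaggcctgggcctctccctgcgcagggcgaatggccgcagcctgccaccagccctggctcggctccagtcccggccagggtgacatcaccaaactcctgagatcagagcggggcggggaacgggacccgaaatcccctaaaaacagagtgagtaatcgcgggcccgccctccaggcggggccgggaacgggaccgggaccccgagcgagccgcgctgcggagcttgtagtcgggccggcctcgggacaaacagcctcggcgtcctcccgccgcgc

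The 10 genes spanned a wide range of levels, with Nfkbia and Tnfaip3 the most abundant in all 8 sums. UMIs of this 5' assay count molecules whatever the transcript length, so the levels of different genes are on 1 scale, apart from differences in how well each 5' end is captured. In tumor-lung Foxp3+ Ccr7- cells Nfkbia reached 3465 CPM and Tnfaip3 1179 CPM, whereas Nfkb1 was at 105, Nfkb2 at 135, Rela at 131 and Relb at 91.7 CPM. Summed over the 10 genes, the level in tumor lung was 5439 CPM in Foxp3+ Ccr7+ cells, 6150 in Foxp3+ Ccr7-, 3292 in Foxp3- Ccr7+ and 4094 in Foxp3- Ccr7- cells. The same sums in normal lung were 3260, 4322, 2443 and 2829 CPM. The sum in tumor lung lay above that in normal lung in each gate, and within each library Foxp3+ cells lay above Foxp3- cells of the same Ccr7 state. After every cell had been thinned to 2417 UMIs, a mean of 4.08 of the 10 genes was detected per Foxp3+ Ccr7+ cell in tumor lung and 3.09 in normal lung, and 3.11 and 2.82 per Foxp3- Ccr7+ cell. All populations here were CD4 T cells, and none that should lack these transcripts was available to measure the background of free RNA in droplets. For every level, ratio and share the interval is an exact 95% interval for counting error only. Molecules of 1 cell and cells of 1 clone or animal are not independent, so the true error is larger.

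**Figure D1:**
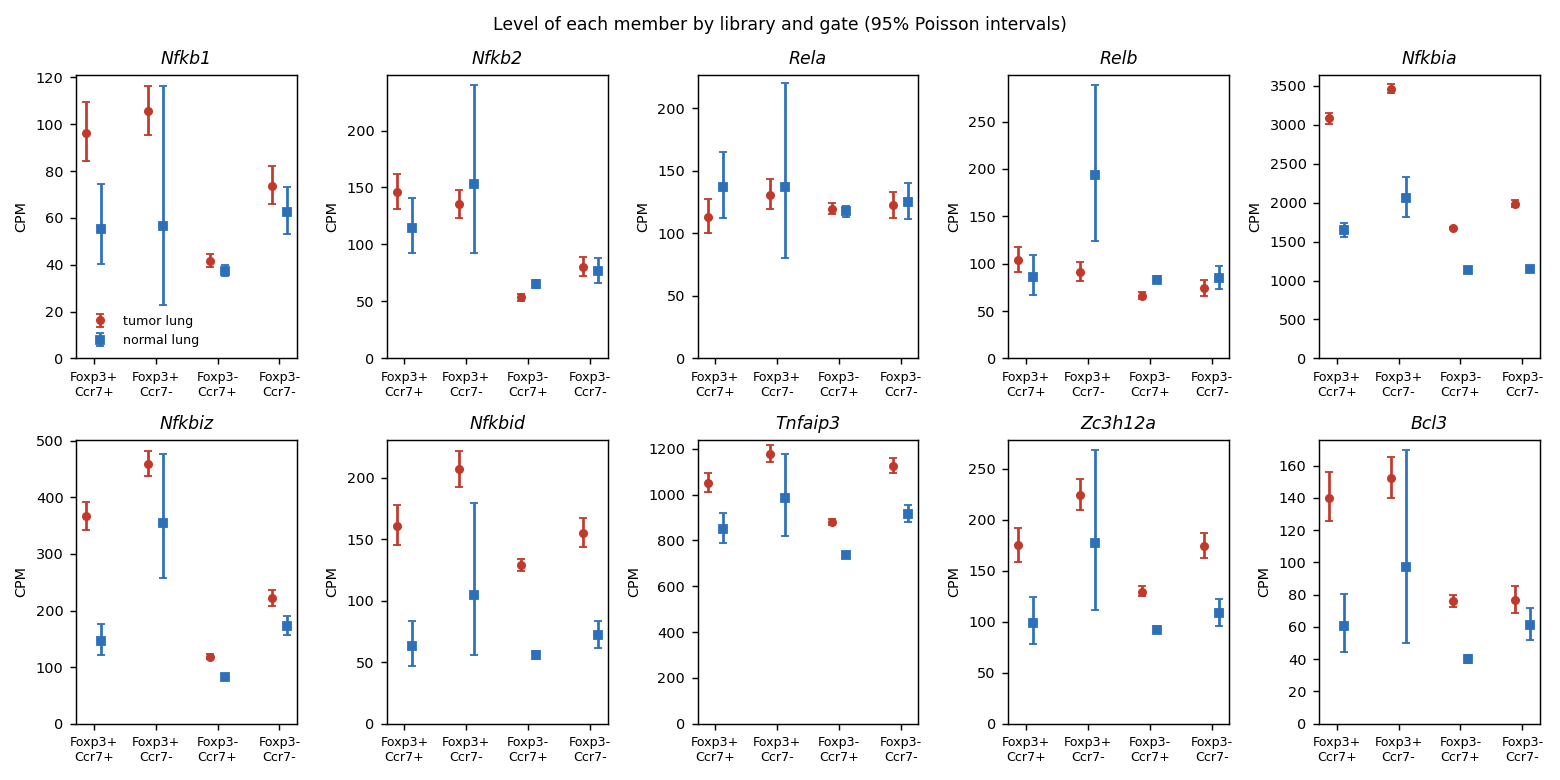
Level of each of the 10 genes in CPM (vertical axes, starting at 0 and different for each gene) in the 4 gates of tumor lung (circles) and normal lung (squares), where bars are exact 95% Poisson intervals for counting error and each point is a sum over the cells of 1 library. Nfkb1, Nfkbia, Nfkbiz, Nfkbid, Tnfaip3, Zc3h12a and Bcl3 lie higher in tumor lung in all 4 gates, by differing amounts. Rela is level across the 8 sums, and the 31 normal Foxp3+ Ccr7- cells give wide intervals.

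Among the subunits, Rela stood at about the same level everywhere. Rela encodes the p65 subunit, the main activating partner of the canonical pathway. In tumor lung its level was 113 CPM in Foxp3+ Ccr7+, 131 in Foxp3+ Ccr7-, 120 in Foxp3- Ccr7+ and 122 CPM in Foxp3- Ccr7- cells. In normal lung it was 137, 137, 118 and 125 CPM in the same order. The tissues overlapped, and in the largest gate, Foxp3- Ccr7+, the tumor over normal ratio was 1.02 (0.964 to 1.07). Thinned cells with a Rela UMI made up between 20.7% and 27.6% in the 8 sums, the lowest being the 29 thinned normal Foxp3+ Ccr7- cells.

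Nfkb1 and Nfkb2 encode p105 and p100, precursors that act as inhibitors and are processed to the DNA-binding subunits p50 and p52. Nfkb1 in tumor lung was at 96.3, 105, 41.8 and 73.7 CPM in Foxp3+ Ccr7+, Foxp3+ Ccr7-, Foxp3- Ccr7+ and Foxp3- Ccr7- cells. In normal lung it was at 55.4, 56.5, 37.4 and 62.5 CPM. Nfkb1 was therefore highest in the Foxp3+ cells of tumor lung and lowest in the Foxp3- Ccr7+ cells of both tissues. Nfkb2 in tumor lung was at 146, 135, 53.7 and 80.3 CPM in the same order of gates, and in normal lung at 115, 153, 65.2 and 76.4 CPM. Nfkb2 was thus higher in Foxp3+ than in Foxp3- cells in both tissues, with no overlap between the 4 Foxp3+ and the 4 Foxp3- sums. The share of all genes with such a pattern was not counted.

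Relb, the partner of p52 in the alternative pathway that runs through the kinase NIK, was at 104, 91.7, 66.4 and 74.1 CPM in tumor lung and at 86.3, 194, 83.0 and 84.9 CPM in normal lung. The highest of these values rested on 24 UMIs in 13 of the 31 normal Foxp3+ Ccr7- cells, with an interval from 124 to 288 CPM. In Foxp3- Ccr7+ cells, the gate with the most UMIs, the tumor over normal ratio of Relb was 0.799 (0.747 to 0.856), short of the 1.5-fold threshold used here.

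Nfkbia encodes IkBalpha, the inhibitor that is degraded and then made again after each NF-kB signal. In tumor lung it was at 3085, 3465, 1675 and 1988 CPM in Foxp3+ Ccr7+, Foxp3+ Ccr7-, Foxp3- Ccr7+ and Foxp3- Ccr7- cells, and in normal lung at 1647, 2060, 1132 and 1149 CPM. Both Foxp3+ gates of tumor lung lay above every other sum. In thinned Foxp3+ Ccr7+ cells, 93.8% in tumor and 89.6% in normal lung had an Nfkbia UMI. Over all Foxp3+ cells, those with Nfkbia held a mean of 18.4 UMIs in tumor lung and 8.07 in normal lung, at median depths of 4725 and 3996 UMIs.

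Nfkbiz encodes IkBzeta, an inducible nuclear IkB protein that assists transcription of a set of secondary NF-kB targets. In tumor lung it was at 366, 459, 118 and 222 CPM in the same order, and in normal lung at 147, 355, 82.7 and 173 CPM. The Nfkbiz level of Ccr7- cells lay above that of Ccr7+ cells in each of the 4 matched pairs. That direction was shared by every member except Nfkb2 and Relb. It was also the direction of genes in general, whose median log2 ratio was above 0 in each pair. This median was 0.09 and 0.12 in Foxp3+ and Foxp3- cells of tumor lung, and 0.13 and 0.15 in those of normal lung. Some member ratios lay close to 1, such as Rela at 1.005 in normal-lung Foxp3+ cells and Nfkbia at 1.015 in normal-lung Foxp3- cells. Both intervals included 1. Tumor-lung Foxp3+ cells, 16.1% of the kept cells, held 42.5% of all Nfkbiz UMIs of that library, the largest share among the 10 genes, against 19.8% of the Rela UMIs.

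Nfkbid encodes IkBNS, a nuclear IkB protein that in mice cooperates with c-Rel to induce Foxp3. Its levels were 161, 207, 129 and 155 CPM in tumor lung and 63.1, 105, 55.8 and 71.9 CPM in normal lung. Every gate of tumor lung lay above every gate of normal lung, and the share of all genes with that pattern was not counted either. Bcl3 encodes an IkB protein that binds p50 and p52 dimers in the nucleus. It was at 140, 152, 76.1 and 76.8 CPM in tumor lung and at 60.6, 96.9, 40.0 and 60.9 CPM in normal lung. The 2 Foxp3+ sums of tumor lung were the highest, and the tissues overlapped across gates.

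Tnfaip3 encodes A20, a ubiquitin-editing enzyme that ends signaling upstream of IKK. It was at 1052, 1179, 882 and 1127 CPM in tumor lung and at 850, 985, 737 and 917 CPM in normal lung. These values lay within a narrow span for so abundant a transcript, with Foxp3- Ccr7+ cells lowest in both tissues. Zc3h12a encodes Regnase-1, a ribonuclease that degrades mRNAs of cytokines and of T cell activation genes. It was at 175, 224, 130 and 174 CPM in tumor lung and at 99.2, 178, 92.4 and 109 CPM in normal lung.

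The first comparison asked how the tumor-bearing lung differed from the normal lung within each gate. A gene was called higher or lower when its CPM differed by more than 1.5-fold and at least 20 UMIs were counted over both sides. In Foxp3+ Ccr7+ cells 6 of the 10 members were higher in tumor lung and none lower, where 25.6% of the 8433 genes measured were higher and 8.47% lower. Nfkbid was 2.55-fold higher (1.89 to 3.50), Nfkbiz 2.49-fold (2.05 to 3.06) and Bcl3 2.31-fold (1.70 to 3.21). Nfkbia was 1.87-fold higher (1.77 to 1.99), Zc3h12a 1.76-fold and Nfkb1 1.74-fold. Rela at 0.827, Relb at 1.20, Tnfaip3 at 1.24 and Nfkb2 at 1.27 did not pass the threshold. The median log2 ratio of the members was 0.81, and that of all genes measured 0.17. Under the stricter rule that at least 20 UMIs be expected on the shallower side, added after seeing the data, 20.8% of genes and the same number of members were higher. The call of Nfkb1 depended on the settings, with a ratio between 1.30 and 1.74 over 8 settings and above 1.5 in 5 of them. The 2 sides of this gate differed in other markers too. Summed naive markers were at 2321 CPM in tumor and 5221 CPM in normal lung, the 7 Treg markers at 4516 and 1911 CPM, and ribosomal protein genes took 23.3% and 30.5% of UMIs. Their part in the result was not tested.

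In Foxp3+ Ccr7- cells 4 members were higher in tumor lung, where 22.2% of genes were, and 1 was lower, where 16.6% of genes were. Nfkbid was 1.97-fold higher (1.15 to 3.72) and Nfkbia 1.68-fold (1.49 to 1.91). The ratios of Nfkb1, 1.87 on 7 normal UMIs, and of Bcl3, 1.57 on 12 normal UMIs, passed the threshold with intervals that included 1. Thinning cells before gating brought Nfkb1 to 1.03, and Bcl3 was above 1.5 in 6 of 8 settings. Relb was lower at 0.473 (0.312 to 0.748), and its log2 ratio of -1.08 became -0.48 when cells were thinned before gating, short of the threshold. Under the stricter rule 16.3% of genes were higher, and 2 of the 5 members it left. The normal side of this gate was only 31 cells and 123797 UMIs, which limits every ratio in it.

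Foxp3- cells are mostly conventional CD4 T cells. In Foxp3- Ccr7+ cells Nfkbid was 2.31-fold higher in tumor lung (2.17 to 2.47) and Bcl3 1.90-fold (1.75 to 2.06). These 2 of 10 compare with 7.54% of all genes called higher, and no member was lower, where 3.5% of genes were. Nfkbia at 1.48, Nfkbiz at 1.43 and Zc3h12a at 1.40 stayed just under the threshold with narrow intervals, and Nfkb2 at 0.824 and Relb at 0.799 lay below 1. In Foxp3- Ccr7- cells Nfkbid was 2.16-fold higher (1.83 to 2.56), Nfkbia 1.73-fold (1.66 to 1.81) and Zc3h12a 1.60-fold (1.39 to 1.85). These 3 of 10 compare with 10.2% of genes called higher, and no member was lower, where 7.22% of genes were. Under the stricter rule 5.8% of genes were higher in Foxp3- Ccr7+ and 7.64% in Foxp3- Ccr7- cells, with 2 and 3 members. The median log2 ratio of the members was 0.37 in Foxp3- Ccr7+ and 0.32 in Foxp3- Ccr7- cells, and that of all genes 0.03 and -0.02. The tissues differed in other markers here too. In Foxp3- Ccr7- cells the 7 Treg markers were at 1180 CPM in tumor and 455 CPM in normal lung. Summed naive markers were at 1964 and 2643 CPM. In Foxp3- Ccr7+ cells the Treg markers were at 406 and 264 CPM and the naive markers at 4179 and 5298 CPM. The part of these differences in the result was not tested.

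Across the 4 gates Nfkbid was the member called higher in tumor lung each time, and it stayed past 1.5-fold under all the alternative settings in which its ratio was recomputed. Its ratios ran from 1.97 to 2.55, those of Nfkbia from 1.48 to 1.87, those of Tnfaip3 from 1.20 to 1.24 and those of Rela from 0.827 to 1.02. The summed level of immediate early and dissociation genes in tumor lung also lay above that in normal lung, at 10721, 11048, 10966 and 12270 CPM against 8795, 9540, 8260 and 9189 CPM in the 4 gates. Of the 17 genes on that list, 3 of 14 measured were called higher and 1 lower in Foxp3+ Ccr7+ cells, where 25.6% and 8.47% of all genes were. In the other gates 6 of 15 were higher in Foxp3+ Ccr7- (22.2% of all genes), 8 of 17 in Foxp3- Ccr7+ (7.54%) and 4 of 15 in Foxp3- Ccr7- cells (10.2%), with none lower. Many of them respond to tissue digestion as well as to receptor signals, and their part in the differences of the NF-kB genes was not tested. Library preparation and tissue cannot be told apart, since each tissue was 1 library.

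**Figure D2:**
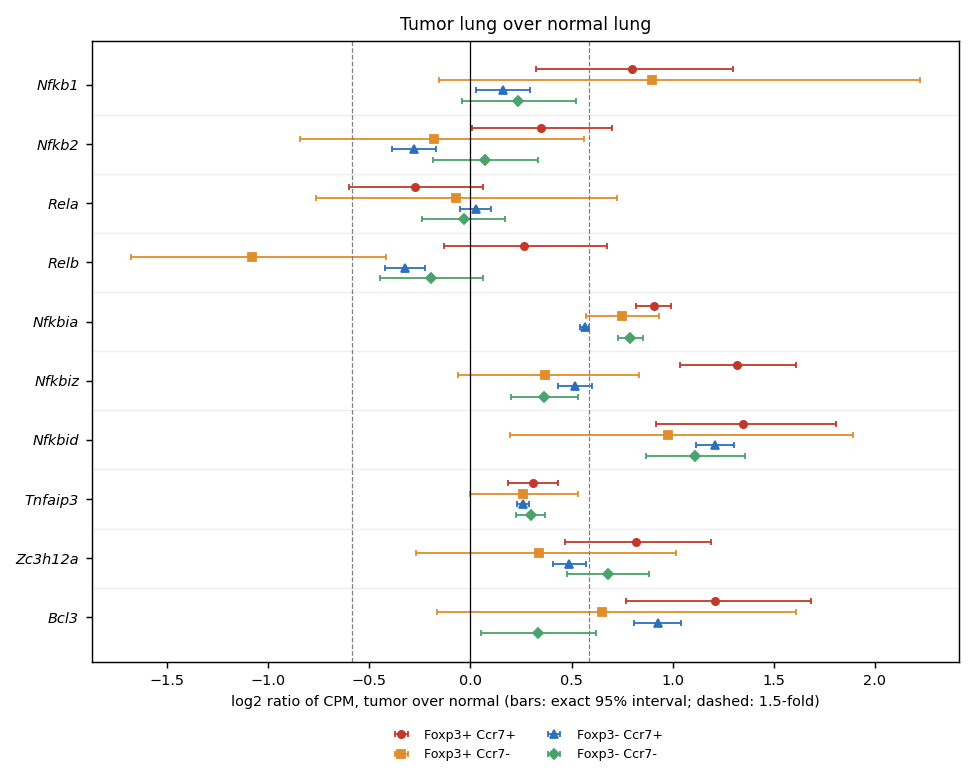
Ratio of the level in tumor lung to that in normal lung on a log2 scale (horizontal axis) for each of the 10 genes, with a marker for each gate and bars for the exact 95% interval of counting error. Dashed lines mark 1.5-fold. Nfkbid lies past the line in all 4 gates, from 1.97-fold to 2.55-fold, and Rela lies close to 0.

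The second comparison, of Foxp3+ with Foxp3- cells, was made inside each library and so does not rest on differences between libraries. Nfkbiz, Nfkb2 and Bcl3 passed the threshold in Foxp3+ cells in all 4 versions of it, Bcl3 less firmly in normal lung. In tumor-lung Ccr7+ cells 6 members were higher, where 26.4% of genes were, and none lower, where 11.2% were. Nfkbiz was 3.1-fold higher (2.87 to 3.35), Nfkb2 2.72-fold (2.41 to 3.06) and Nfkb1 2.31-fold (1.99 to 2.66). Nfkbia and Bcl3 were both 1.84-fold higher and Relb 1.56-fold, which ran from 1.33 to 1.61 over the 8 settings. In tumor-lung Ccr7- cells 4 members were higher, where 22.6% of genes were and 11.7% were lower, namely Nfkbiz at 2.07 (1.91 to 2.24), Bcl3 at 1.98, Nfkbia at 1.74 and Nfkb2 at 1.68. The median log2 ratio of the members was 0.76 in Ccr7+ and 0.47 in Ccr7- cells of tumor lung, and that of all genes 0.19 and 0.16. Under the stricter rule 20.7% of genes were higher in the Ccr7+ and 20.9% in the Ccr7- comparison, with 6 and 4 members.

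In normal-lung Ccr7+ cells 3 members were higher in Foxp3+ cells, where 15.6% of genes were (5.82% under the stricter rule) and 10.6% were lower, with Nfkbiz at 1.78 (1.46 to 2.15), Nfkb2 at 1.76 (1.41 to 2.18) and Bcl3 at 1.51 (1.10 to 2.03). Bcl3 was above 1.5 in only 4 of 8 settings here, between 1.24 and 1.77. The 31 Foxp3+ Ccr7- cells of normal lung had 6 members higher than Foxp3- Ccr7- cells, where 22% of genes were (12.8% under the stricter rule, with 2 of the 3 members it left) and 19.5% were lower, among them Relb at 2.28 (1.43 to 3.49), Nfkbiz at 2.06 and Nfkb2 at 2.01. Bcl3 was at 1.59 on 12 UMIs, with an interval from 0.804 to 2.86, and above 1.5 in 6 of 8 settings. Rela stayed between 0.944 and 1.16 and Tnfaip3 between 1.05 and 1.19 in the 4 versions. In tumor lung, ribosomal protein genes took 23.3% of UMIs in Foxp3+ Ccr7+ and 33.0% in Foxp3- Ccr7+ cells, and the median depth was 5223 and 4176 UMIs. Their part in the result was not tested. With ribosomal and mitochondrial genes taken out of the totals, the median log2 ratio of all genes in that comparison moved by -0.21, and the ratio of Nfkbiz stayed at 2.64 or above under every setting tried.

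**Figure D3:**
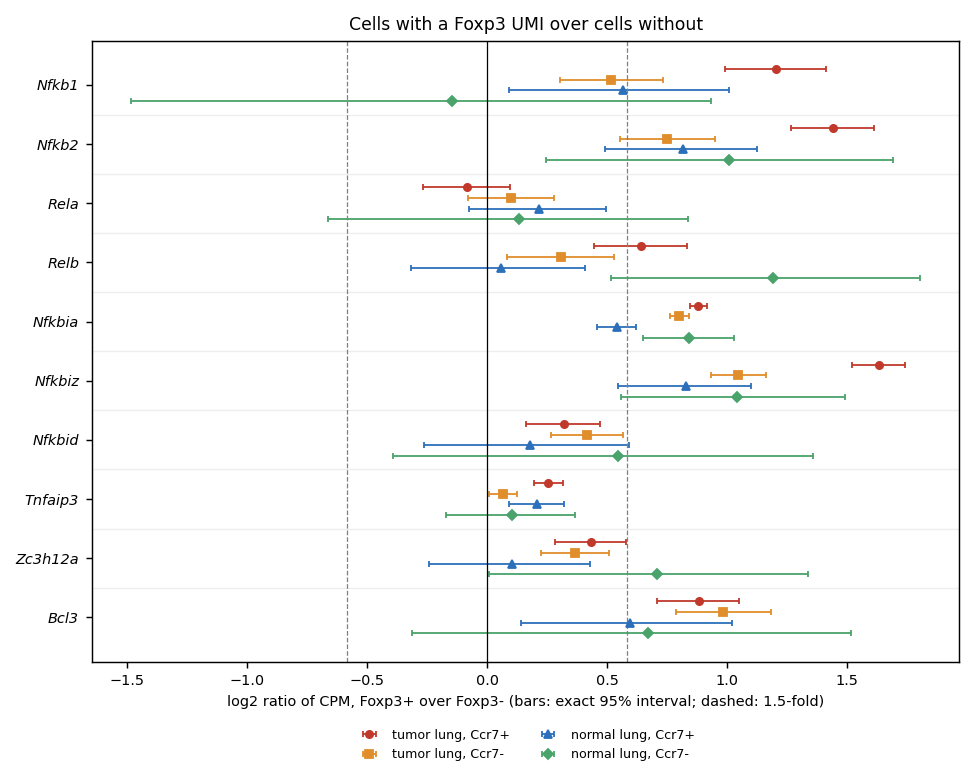
Ratio of the level in Foxp3+ cells to that in Foxp3- cells on a log2 scale (horizontal axis) for each of the 10 genes, within each library and split by Ccr7, with bars for the exact 95% interval of counting error and dashed lines at 1.5-fold. Nfkb2, Nfkbiz and Bcl3 lie to the right of the line in all 4 versions, and Rela and Tnfaip3 lie near 0.

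The third comparison set Ccr7- against Ccr7+ cells within each library, where the counts of members were mostly near the shares of all genes. Within tumor-lung Foxp3+ cells none of the 10 was called in either direction, where 9.39% of genes were higher (7.05% under the stricter rule) and 6.73% lower in Ccr7- cells, and the largest ratio was 1.29 for Nfkbid. Within Foxp3- cells Nfkbiz and Nfkb1 were higher in Ccr7- cells in both libraries. Nfkbiz was 1.88-fold higher in tumor lung (1.75 to 2.02) and 2.09-fold in normal lung (1.88 to 2.32), and Nfkb1 1.76-fold and 1.67-fold. The Nfkb1 call ended in tumor lung when cells were thinned before gating, at 1.32. In normal lung it ended under thinning and both other scalings, with a range from 1.43 to 1.71. That made 2 of 10 members in tumor lung, where 14.9% of genes were higher (10.1% under the stricter rule) and 5.2% lower. In normal lung Bcl3 was also higher at 1.52, above 1.5 in 5 of 8 settings (1.11 to 1.58), making 3 of 10, where 17.9% of genes were (11.7% under the stricter rule) and 8.25% were lower. Among the Foxp3+ cells of normal lung 5 members were higher in the 31 Ccr7- cells, where 26% of genes were (22.6% under the stricter rule, with 1 of the 3 members it left) and 19.9% were lower, led by Nfkbiz at 2.42 (1.67 to 3.45) and Relb at 2.25 (1.35 to 3.63).

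The last comparison set Tregs with a UMI of Il1rl1, which encodes the interleukin-33 receptor ST2, against Tregs without it that had a UMI of Klrg1 or Tnfrsf9, markers of activated Tregs. Signals from ST2 pass through MyD88 to NF-kB. In tumor lung 164 Foxp3+ cells had Il1rl1, 787 had Klrg1 or Tnfrsf9 only, and 196 had none of the 3. All 10 members had a ratio above 1 in the ST2 cells, from 1.10 for Rela to 1.54, although Nfkb1 was at 0.942 in 1 alternative. Zc3h12a at 1.54 (1.34 to 1.76) and Nfkbiz at 1.54 (1.40 to 1.68) passed the threshold, where 5.05% of genes were higher (1.64% under the stricter rule, with both members) and 10% lower. Nfkbiz was at 632 CPM in ST2 cells, 411 in the other activated cells and 239 in cells with none of the 3 markers. Zc3h12a was at 304, 198 and 128 CPM, and Nfkbia at 4193, 3292 and 2433 CPM. The order of the 3 groups was thus the same for these genes, with ST2 cells highest. The third group was set in part by having no UMI of Tnfrsf9, itself an NF-kB target. Its place in the order is therefore not independent of the pathway. Of the others, Nfkbid was at 1.41 (1.22 to 1.63), Nfkb2 at 1.28, Nfkbia at 1.27 (1.23 to 1.32) and Nfkb1 at 1.25. The median log2 ratio of the members was 0.34 and that of all genes -0.04, and Zc3h12a stayed between 1.47 and 1.57 under the alternatives, under 1.5 only when cells were thinned before gating.

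Median depth was 5244 UMIs in the ST2 cells and 4782 in the other activated cells, so shares of cells were also compared after thinning to 2417 UMIs. A Zc3h12a UMI was then found in 52.9% of ST2 cells (44.7 to 61.0), 35.8% of other activated cells (32.4 to 39.4) and 22.7% of cells with none of the markers, against 75.0%, 55.4% and 37.2% before thinning. For Nfkbiz the thinned shares were 64.5%, 51.6% and 34.1%, and the unthinned ones 86.0%, 66.5% and 44.9%. For Rela they were 25.8%, 27.8% and 21.6%. A mean of 4.85 of the 10 genes was detected per thinned ST2 cell, 4.26 per other activated cell and 3.49 per cell with none. Ribosomal protein genes took 18.7% and 19.0% of UMIs in ST2 and other activated cells, the 7 Treg markers were at 6376 and 6251 CPM, and summed immediate early genes at 11643 and 10673 CPM. Cells with none of the 3 markers differed more, with a median depth of 3921 UMIs and 26.3% ribosomal UMIs. Their 7 Treg markers were at 2808 CPM. Summed naive markers were at 2760 CPM in them, against 860 in ST2 and 1025 in other activated cells. Of the 16 immediate early genes measured, 3 were called higher and 1 lower in ST2 cells, where 5.05% and 10% of all genes were. The part of these differences in the result was not tested.

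Normal lung had only 16 ST2 cells and 44 other activated cells. Nfkbiz was higher in the ST2 cells there too, with 45 UMIs against 38 and a ratio of 2.72 (1.73 to 4.30), and 14 of the 16 cells had an Nfkbiz UMI. Of 8 members with enough UMIs, 4 were higher, where 23.3% of genes were (17.5% under the stricter rule, with 1 of the 3 members it left) and 15.6% were lower. The intervals of the other 3, Bcl3, Rela and Zc3h12a, all included 1. Nfkbiz and Zc3h12a were the members called higher in both libraries, while Relb, Nfkbia and Tnfaip3 had ratios above 1 in tumor lung and below 1 in normal lung.

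**Figure D4:**
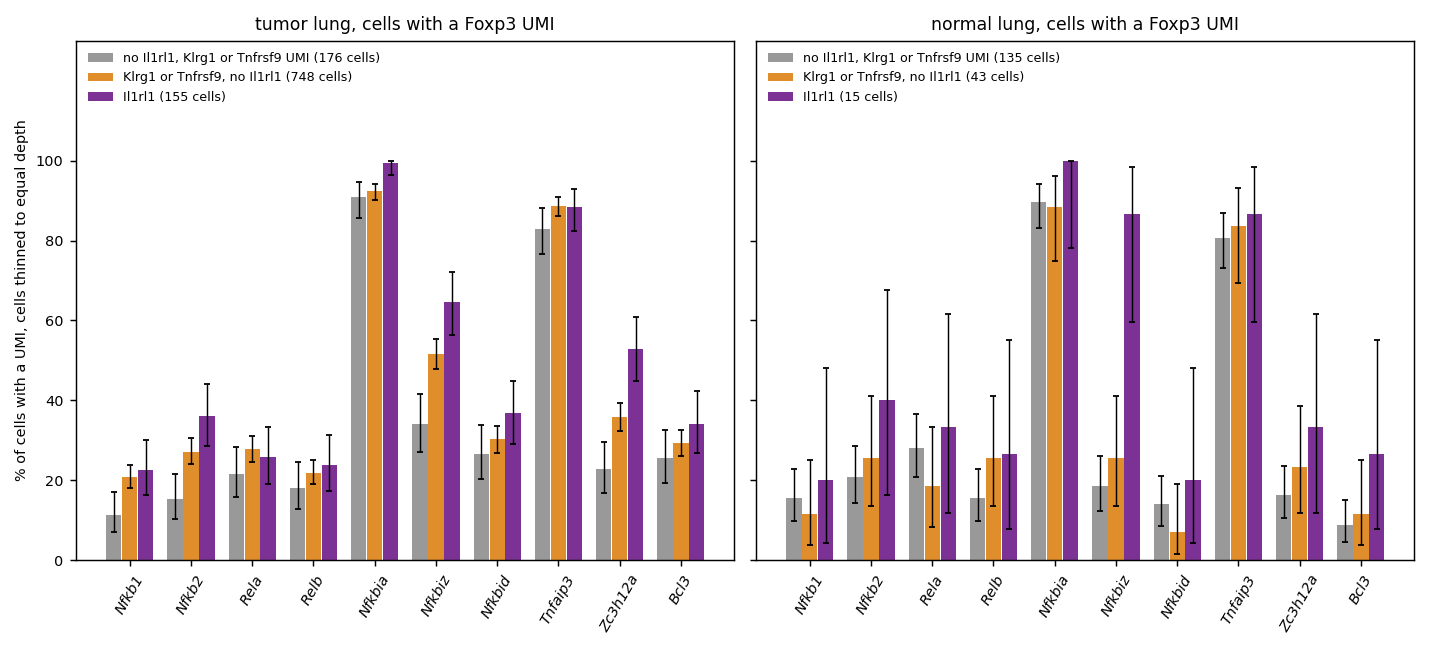
Share of Foxp3+ cells with at least 1 UMI of each gene after every cell was thinned to 2417 UMIs (vertical axis, %), in tumor lung (left) and normal lung (right), for cells with none of Il1rl1, Klrg1 and Tnfrsf9, cells with Klrg1 or Tnfrsf9 but no Il1rl1, and cells with Il1rl1, where bars are exact 95% Clopper-Pearson intervals. In tumor lung the shares for Zc3h12a are 22.7%, 35.8% and 52.9%, and those for Rela lie between 21.6% and 27.8%.

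The rest of the pathway was described from 5 lists, which were drawn up with earlier results of these data known. Of 16 NF-kB target genes, 13 were higher in tumor lung in Foxp3+ Ccr7+ cells, 11 in Foxp3+ Ccr7-, 11 in Foxp3- Ccr7+ and 9 in Foxp3- Ccr7- cells, and none was lower. The shares of all genes called higher were 25.6%, 22.2%, 7.54% and 10.2%, and of those called lower 8.47%, 16.6%, 3.5% and 7.22%. The median log2 ratios of the targets were 1.54, 1.14, 0.77 and 0.69. The targets Il2ra, Tnfrsf4 and Tnfrsf18 are also on the list of Treg markers. The target counts are therefore not independent of the difference in those markers between the tissues. Tnfrsf9, the costimulatory receptor 4-1BB, had the highest ratio among the targets in 3 of the 4 gates, at 9.70 (7.62 to 12.5) in Foxp3+ Ccr7+, 7.65 in Foxp3- Ccr7+ and 6.61 in Foxp3- Ccr7- cells. Icam1, an adhesion molecule, was 3.99-fold higher in Foxp3- Ccr7+ cells (3.45 to 4.63). Cd83, a stabilizer of MHC class II, was 5.66-fold higher in Foxp3- Ccr7- cells. In Foxp3+ Ccr7- cells Bcl2l1, which encodes the survival protein Bcl-xL, was higher on 334 tumor UMIs against 1 normal UMI, a ratio of 11.2 (1.99 to 443). Il2ra and Tnfrsf9, which had the highest ratios of Foxp3+ over Foxp3- cells in tumor lung, are also Treg markers, and Il2ra reached 51.3-fold in Ccr7+ cells and 14.1-fold in Ccr7- cells.

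Of 10 genes of the IKK complex and its upstream kinases, 2 were higher and 1 lower of 9 measured between the tissues in Foxp3+ Ccr7+ cells, near the 25.6% and 8.47% of all genes. In Foxp3+ Ccr7- cells 1 of 10 was higher and 3 lower, where 22.2% and 16.6% of all genes were. In Foxp3- Ccr7+ cells none of 10 was called, where 7.54% of genes were higher and 3.5% lower. In Foxp3- Ccr7- cells 2 of 10 were higher and none lower, where 10.2% and 7.22% of genes were. The lower one in Foxp3+ Ccr7+ cells was Map3k14, which encodes the kinase NIK of the alternative pathway, at 37.0 CPM in tumor and 70.9 CPM in normal lung, a ratio of 0.522 (0.369 to 0.743). Map3k14 was also lower in Foxp3+ than in Foxp3- cells of tumor lung, at 0.515 (0.412 to 0.637) in Ccr7+ and 0.330 (0.258 to 0.418) in Ccr7- cells. Its level in Foxp3- Ccr7- cells of tumor lung was 73.0 CPM and in Foxp3+ Ccr7- cells 24.1 CPM. In tumor lung Map3k14 was thus lower and Nfkb2, the precursor whose processing NIK drives, higher in Foxp3+ cells. Nfkb2 was also higher in Foxp3+ cells of normal lung, for which no such ratio of Map3k14 is given here. At 70.9 CPM, Map3k14 in normal-lung Foxp3+ Ccr7+ cells was near the 71.7 CPM of tumor-lung Foxp3- Ccr7+ cells.

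The remaining NF-kB and IkB genes, Rel, Nfkbib and Nfkbie, were named after their values were seen. All 3 were higher in Foxp3+ Ccr7+ than in Foxp3- Ccr7+ cells of tumor lung, where 26.4% of all genes were. Rel, which encodes c-Rel, was 2.29-fold higher and Nfkbie, which encodes IkBepsilon, 2.50-fold. These 2 were also higher in Ccr7- cells, at 1.72 and 2.30, where 22.6% of genes were. In normal-lung Ccr7+ cells only Nfkbie was called, at 2.28, where 15.6% of genes were higher. Rel was at 1.32 and Nfkbib at 1.19 there. In normal-lung Ccr7- cells Rel was at 2.35 and Nfkbie at 4.79, on 24 and 26 Foxp3+ UMIs, where 22% of genes were higher. Nfkbib at 1.26 was not called. Between the tissues, Rel was higher in tumor-lung Foxp3+ Ccr7+ cells at 1.74 (1.39 to 2.19), where 25.6% of genes were. Nfkbib and Nfkbie were not called there. Nfkbie was lower in Foxp3+ Ccr7- cells at 0.550 (0.370 to 0.852), on 26 normal UMIs, where 16.6% of genes were lower. In both Foxp3- gates none of the 3 was called. Of all genes 7.54% were higher and 3.5% lower in Foxp3- Ccr7+ cells, and 10.2% and 7.22% in Foxp3- Ccr7- cells. Among 18 adaptor and ubiquitin ligase genes, 6 were higher and none lower in Foxp3+ Ccr7+ over Foxp3- Ccr7+ cells of tumor lung, near the 26.4% of all genes called higher there. The adaptor Traf1 had the highest ratio at 3.66. Among 14 other negative regulators, N4bp1, a ribonuclease that restrains NF-kB, was higher in tumor-lung than in normal-lung Foxp3+ Ccr7+ cells on 172 UMIs against 2, a ratio of 27.1 (7.39 to 226). Tnip1, a partner of A20, ran the other way in Foxp3- Ccr7+ cells at 87.0 CPM in tumor and 123 CPM in normal lung, a ratio of 0.708 (0.668 to 0.751) that fell short of the threshold. In the ST2 comparison, whose groups were set in part by the target gene Tnfrsf9, 1 of 16 targets was higher, Cd83 at 1.69 (1.51 to 1.88). None of the 18 adaptors was called. The target count was near the share of all genes, of which 5.05% were higher and 10% lower. There Rc3h2 and Otud7b were called lower on 12 and 11 UMIs in ST2 cells, and Tab3 higher on 8, with the interval of Rc3h2 the only one of the 3 that did not include 1.

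Other list genes also stood at the ends of the range. Between the tissues, Ikbke, which encodes an IKK-related kinase, was at 0.714 (0.519 to 0.992) in Foxp3+ Ccr7+ cells, short of the threshold. In Foxp3+ Ccr7- cells Irak3, an inhibitor of Toll-like and interleukin-1 receptor signaling, and Map3k7, the kinase TAK1, were called lower on 3 and 4 normal UMIs, and Rc3h1, the RNA-binding protein Roquin, higher on 1, with intervals that included 1. In Foxp3- Ccr7+ cells Irak3 was lower at 0.659 (0.471 to 0.916), and in Foxp3- Ccr7- cells Ikbkg, the IKK scaffold NEMO, had the lowest ratio at 0.796. Within tumor-lung Foxp3+ cells N4bp1 was 1.92-fold higher in Ccr7- than in Ccr7+ cells (1.61 to 2.30) and Map3k14 was lower at 0.651 (0.481 to 0.882). Within tumor-lung Foxp3- cells Tnfrsf9 was 6.01-fold and Il2ra 5.40-fold higher in Ccr7- cells.

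The genes whose levels followed those of a member most closely over the 8 sums were found by Pearson's r of log2(CPM + 1) among 8938 genes, for the 3 members with the most UMIs. Nfkbia was followed by Wnk1, Il1r2 and Ccdc6, with r of 0.987, 0.986 and 0.986, Tnfaip3 by Plekha2, Rgs1 and Lgals3bp with r of 0.984, 0.981 and 0.980, and Nfkbiz by Fam92a, Prdx2 and Dnajc1 with r of 0.995, 0.995 and 0.994. Among the members themselves Nfkbia ran closest to Bcl3 at r of 0.953 and Tnfaip3 to Zc3h12a at 0.927, while for Rela the highest r with any member was 0.480. These are descriptions over 8 sums, of which 4 each share a library, its preparation and its depth.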

How the data were processed

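The deposited files hold UMI counts per gene and cell barcode, made by the authors with Cell Ranger 3.1.0, per the file headers, on the mm10 build, per the submitters' processing notes. No further step is given in the sources used here. From these counts, cells with under 500 genes or at least 10% mitochondrial UMIs were left out (120 tumor, 61 normal), as were likely doublets with more than 2 alpha or 1 beta receptor chains (533 and 602). No expression-based doublet caller was run. The libraries held 35633167 and 31697386 UMIs before filtering. CPM is a gene's UMIs per 1000000 UMIs of a gate. Poisson, conditional ratio and Clopper-Pearson intervals are exact, at 95%, and cover counting error only. Shares were compared after drawing 2417 UMIs from each cell, a depth reached by all but the lowest 10% of normal-lung cells. A gene was called past 1.5-fold with at least 20 UMIs over both sides. With 1 library per tissue no p-value is given. All 10 members were named, and from the pathway lists the 2 highest and 2 lowest ratios of a comparison, printed for the tumor over normal and most of the tumor-lung comparisons. A gene of these lists is not reported here. Rel, Nfkbib, Nfkbie and Traf1 were named after their values were seen. The members and lists were chosen with earlier results of these data known. The receptor libraries served only to filter cells and find the largest clonotype. Python 3.11.15, numpy 2.4.6, scipy 1.17.1 and pandas 2.3.3 were used, and the ratio and calling steps were tested on simulated data.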

Additional observations from a re-analysis of the deposited data

Results flagged for a closer look

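Nfkb2 went in opposite directions in the Ccr7+ cells of the 2 lineages. Its tumor over normal log2 ratio was 0.35 in Foxp3+ Ccr7+ cells and -0.28 in Foxp3- Ccr7+ cells. Neither passed 1.5-fold, the difference between the ratios was not tested, and each tissue was 1 library. Over the alternative settings the log2 ratio stayed between 0.19 and 0.60 in Foxp3+ Ccr7+ cells and between -0.30 and -0.23 in Foxp3- Ccr7+ cells.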

How the results depend on the processing

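No paired analysis was possible because each tissue had 1 library, and for the same reason no replicate could be left out. Of 144 recomputed counts of called members, 116 stayed within 1.5 times the main count and 28 moved; no member ratio past the threshold turned direction. The counts of called members add higher and lower calls, and the shares of all genes under each setting are not set beside them. They thus do not show whether the members lost calls faster or slower than genes in general. At 2-fold, the tumor over normal counts of 6, 5, 2 and 3 (Foxp3+ Ccr7+, Foxp3+ Ccr7-, Foxp3- Ccr7+, Foxp3- Ccr7-) became 3, 1, 1 and 1. The 1 left in Foxp3+ Ccr7- cells was the lower call of Relb, at 0.473. The Foxp3 counts of 6 and 4 in tumor lung (Ccr7+, Ccr7-) became 3 and 1, and those of 3 and 6 in normal lung 0 and 3. The Ccr7 counts became 0 in tumor Foxp3-, 2 in normal Foxp3+ and 1 in normal Foxp3- cells, and the ST2 counts 0 in tumor and 1 in normal lung. Both other scalings, median of ratios and totals without ribosomal and mitochondrial genes, gave 3 for normal Foxp3+ Ccr7, 1 for normal Foxp3- Ccr7 and 2 for normal ST2. Median of ratios moved the all-gene median log2 by -0.15 in tumor over normal Foxp3+ Ccr7+ cells and by -0.23 in Foxp3+ over Foxp3- among tumor Ccr7+ cells. Keeping cells with extra chains gave 3 for normal Foxp3+ Ccr7. Thinning before gating gave 1 for Foxp3- Ccr7 in each library and 1 for normal ST2. At least 50 UMIs gave 1 for normal ST2. At least 20 expected UMIs, added after seeing the data, gave 2 for Foxp3+ Ccr7- tumor over normal, 2 for normal Foxp3 in Ccr7- cells, 1 for normal Foxp3+ Ccr7 and 1 for normal ST2. Depth limits most the 31 normal Foxp3+ Ccr7- and 16 normal ST2 cells.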
